A study of Mus musculus with 8 samples.

Results

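The 10 enzyme genes of serine, one-carbon and asparagine synthesis followed here across 8 tumour libraries were Phgdh, Psat1, Psph, Shmt1, Shmt2, Mthfd2, Mthfd1l, Aldh1l2, Asns and Pck2. They were chosen by symbol, with the diet contrast of these same data already known, and matched by Ensembl identifier, 10 of the 34745 genes listed. Because that contrast informed the choice, their differences between diets are given as descriptions and were not tested among themselves. RNA-seq had been carried out on tumours of B16F10 cells, a single melanoma line of the C57BL/6 mouse, which were grown in DMEM with serum and then injected subcutaneously into C57BL/6J hosts. Hosts were fed a high cholesterol diet (HCD, 4 samples, HCD 1 to HCD 4) or a normal diet (ND, 4 samples, ND 1 to ND 4). No transgene, deletion or drug is named for either group, and both share the cell line, the host strain and the site of injection. The sources used here do not state the age or sex of the hosts, the make-up or length of the diets, or whether each tumour came from a separate mouse, so the spread between samples may be partly technical.

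Cells make serine from the glycolytic intermediate 3-phosphoglycerate in a short chain of cytosolic reactions. Serine then passes a carbon unit to tetrahydrofolate, leaving glycine, and the mitochondrial branch of the folate cycle carries that unit to formate, which the cytosol uses for purine and thymidylate synthesis. Asparagine is made from aspartate with glutamine as the amide donor. In mammalian cells most of these enzymes are induced by ATF4, the transcription factor that is translated when amino acids are short or the endoplasmic reticulum is stressed. Tumour cells, melanoma among them, are known for drawing heavily on the serine pathway.

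The libraries held 14599222 to 17722093 counts each. The defining melanocyte genes were abundant in every library, with a summed level of 27073 to 31399 CPM (read counts scaled to library size with TMM factors) over 8 markers in HCD tumours and 29340 to 30890 CPM in ND tumours. Of these 8 genes, Mitf, the melanocyte lineage transcription factor, rose in HCD by edgeR, DESeq2 and limma-voom. It was named after its value was seen. Mitf was at 452.6 ± 51.3 CPM in HCD, against 250.5 ± 34.3 CPM in ND (log2 fold change 0.85, edgeR adjusted p = 0.0459). Over all genes, edgeR called 0.182%, DESeq2 3.39% of those it tested and limma-voom 0.144%. The other melanocyte markers passed none of these tests, with log2 fold changes from -0.12 (Pmel) to 0.17 (Sox10). The edgeR call of Mitf was lost without any 1 library other than ND 2 (adjusted p up to 0.138). Its log2 fold change was 0.77 to 0.93 with 1 library left out. With a separate term for ND 2 to ND 4, so that the contrast rests on ND 1 alone, it was 0.79. The number of genes with counts was 16285 to 16728 in HCD libraries and 16745 in ND 1, but 18088 to 18224 in the other ND libraries, where 407 to 429 olfactory and vomeronasal receptor genes had counts, against 8 to 13 in all HCD libraries and ND 1. Mitochondrially encoded genes took 11.4% to 12.9% of counts in HCD libraries and 13.7% to 14.7% in ND libraries, with no overlap. With mitochondrially encoded genes left out, 9 of the 10 genes had a lower fitted level in HCD. TMM factors rest on most genes, and that fit kept 13173 of the 13186 tested, so it could hardly differ. The part of the mitochondrial share in these levels was not tested. Summed over 8 markers, skeletal muscle genes were at 3.09 to 6.86 CPM in HCD tumours and at 3.68 to 82.3 CPM in ND tumours, highest in ND 2. These are whole-tumour measurements, in which fewer cells of a type and less RNA per cell cannot be told apart.

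All 10 genes were expressed well above the filter on low counts, with 380 to 6496 counts per library. Of the 10, 9 had a fitted level lower in HCD than in ND tumours, and Shmt1 had a higher one. The median log2 fold change of the 10 genes (HCD over ND) was -0.24, against 0.0049 over all 13186 genes tested, of which 48.9% had a value below 0. None of the 10 passed edgeR's quasi-likelihood test over all genes (Benjamini-Hochberg adjusted p from 0.115 to 0.645, threshold 0.05), a test that called 0.182% of genes (0.114% lower and 0.0683% higher in HCD). At an unadjusted p under 0.05, 5 of the 10 were lower in HCD (Phgdh, Mthfd2, Aldh1l2, Asns and Pck2), against 7.49% of all genes. DESeq2 called 2, Phgdh and Pck2, against 3.39% of the genes it tested, and limma-voom called 0, against 0.144%. Nothing is read from these counts, since the contrast had a part in the choice of genes.

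**Figure D1:**
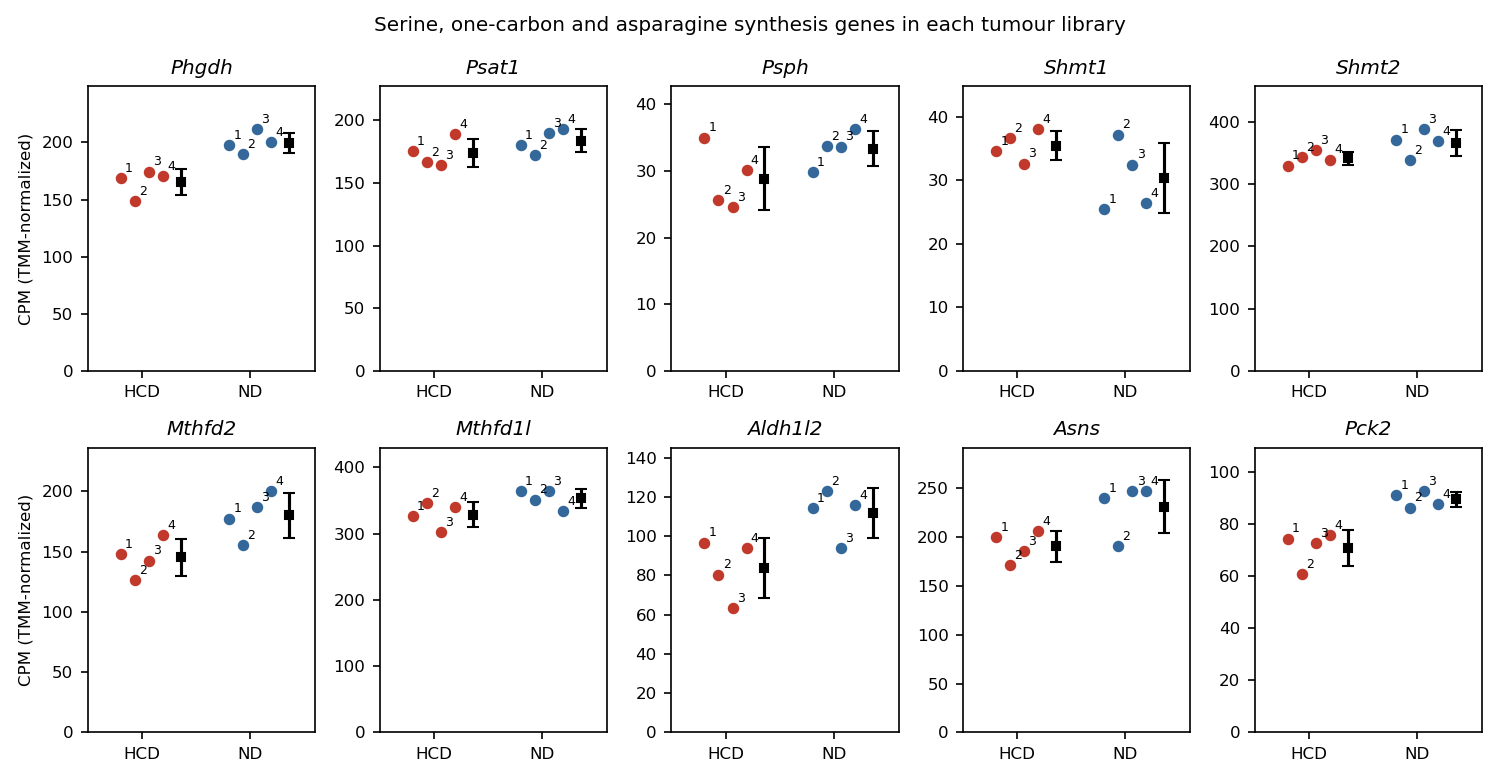
TMM-normalized CPM of each gene in the 4 HCD libraries (red, left) and the 4 ND libraries (blue, right), with replicate numbers beside the points and the group mean ± SD as a black square with bars. Phgdh and Pck2 are the genes whose HCD points all lie below their ND points, and Shmt1 is the gene with the higher HCD mean.

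The serine chain begins with Phgdh (ENSMUSG00000053398, chromosome 3, 98313170 to 98339990, minus strand, mm10), the dehydrogenase that takes 3-phosphoglycerate out of glycolysis. Its level was 168.8, 149.0, 174.4 and 170.7 CPM in HCD 1 to HCD 4, against 197.7, 190.0, 211.4 and 200.1 CPM in ND 1 to ND 4. Every HCD library lay below every ND library, as it did for 4.73% of all genes tested, while 4.94% had every HCD library above every ND library and 9.67% had no overlap in either direction. The means were 165.7 ± 11.4 CPM in HCD and 199.8 ± 8.86 CPM in ND (SD and n = 4 for every mean below). The log2 fold change was -0.27 (SE 0.0684).

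Psat1 (ENSMUSG00000024640, chromosome 19, 15904678 to 15947337, minus strand) encodes the aminotransferase of the next step, which uses glutamate as the nitrogen donor. It was at 175.1, 166.6, 164.3 and 188.7 CPM in HCD 1 to HCD 4, against 180.3, 171.9, 189.9 and 192.6 CPM in ND 1 to ND 4. The groups overlapped, and HCD 4 was above 2 of the ND libraries. The log2 fold change was -0.08 (SE 0.0678), the smallest of the 10 in size. It was -0.12 without HCD 4 and -0.053 when ND 2 to ND 4 were given a separate term, so that the contrast rests on ND 1 alone.

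Psph (ENSMUSG00000029446, chromosome 5, 129765558 to 129787449, minus strand) encodes the phosphatase that releases free serine. It had 35.0, 25.6, 24.6 and 30.2 CPM in HCD 1 to HCD 4, against 29.9, 33.7, 33.6 and 36.2 CPM in ND 1 to ND 4. HCD 1 reached the ND range while HCD 2 and HCD 3 lay below all ND libraries, so the HCD group varied more (coefficient of variation 16.6% in HCD and 7.86% in ND). Its log2 fold change was -0.21 (SE 0.122), which became -0.32 without HCD 1 and -0.050 with the separate term for ND 2 to ND 4. Exons of Psph share 10.4% of their positions with Cct6a on the other strand, and the sources used here do not say whether counting used strand.

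Serine hydroxymethyltransferase, which splits serine into glycine and a folate-bound carbon unit, has a cytosolic form (Shmt1) and a mitochondrial form (Shmt2). Shmt2 (ENSMUSG00000025403, chromosome 10, 127517123 to 127522444, minus strand) was at 329.7, 343.1, 355.2 and 339.4 CPM in HCD 1 to HCD 4, against 371.6, 338.0, 387.8 and 368.9 CPM in ND 1 to ND 4. All ND libraries but ND 2 lay above all HCD libraries, within which ND 2 lay. The log2 fold change was -0.10 (SE 0.0603).

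Shmt1 (ENSMUSG00000020534, chromosome 11, 60788104 to 60811718, minus strand) went the other way, with 34.7, 36.6, 32.7 and 38.01 CPM in HCD 1 to HCD 4, against 25.5, 37.2, 32.5 and 26.4 CPM in ND 1 to ND 4. The HCD libraries lay close together, whereas ND 1 and ND 4 were low and ND 2 was as high as the HCD libraries (coefficient of variation 6.57% in HCD and 18.1% in ND). Its log2 fold change was 0.22 (SE 0.125), and 0.48 with the separate term for ND 2 to ND 4. It was 0.15 without ND 1 and 0.34 without ND 2. In FPKM, which scales counts by gene length, Shmt2 was 24.0 ± 2.08 times Shmt1 in HCD tumours and 30.7 ± 6.16 times in ND tumours. The ratio spanned 22.1 to 27.0 in HCD and 22.5 to 36.2 in ND, so the ranges overlapped. By exon lengths of GENCODE M21 in place of the deposited ones, the ratio was 12.1 ± 1.05 in HCD and 15.5 ± 3.10 in ND.

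Downstream of Shmt2, the mitochondrial dehydrogenase and cyclohydrolase Mthfd2 (ENSMUSG00000005667, chromosome 6, 83305691 to 83325908, minus strand) oxidises the carbon unit to formyl-folate. It was at 148.2, 126.3, 142.7 and 163.9 CPM in HCD 1 to HCD 4, against 177.4, 155.7, 186.9 and 200.4 CPM in ND 1 to ND 4. The groups overlapped because HCD 4 was above ND 2. The means were 145.3 ± 15.5 CPM in HCD and 180.1 ± 18.8 CPM in ND, a log2 fold change of -0.31 (SE 0.0979).

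Mthfd1l (ENSMUSG00000040675, chromosome 10, 3973118 to 4167081, plus strand) encodes the mitochondrial synthetase that frees formate. It was at 326.8, 346.0, 302.6 and 340.2 CPM in HCD 1 to HCD 4, against 364.1, 351.4, 364.5 and 333.8 CPM in ND 1 to ND 4. ND 4 lay within the HCD range, unlike for Phgdh, Mthfd2 and Asns, where ND 4 was among the high libraries. The log2 fold change was -0.10 (SE 0.0628), and -0.068 without HCD 3.

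Aldh1l2 (ENSMUSG00000020256, chromosome 10, 83487450 to 83534140, minus strand) encodes the mitochondrial dehydrogenase that burns formyl-folate to CO2 and yields NADPH. It was at 96.7, 80.5, 63.5 and 94.0 CPM in HCD 1 to HCD 4, against 114.3, 123.0, 93.9 and 116.0 CPM in ND 1 to ND 4. HCD 3 was the lowest library and ND 3 the lowest of its own group, at the level of HCD 4. The log2 fold change, -0.42 (SE 0.134), was the largest of the 10 in size, and its HCD group had the widest relative spread (coefficient of variation 18.2%). Its exons share 14.1% of their positions with D10Wsu102e on the other strand.

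Asns (ENSMUSG00000029752, chromosome 6, 7675169 to 7693254, minus strand), asparagine synthetase, was at 199.6, 170.8, 185.1 and 205.8 CPM in HCD 1 to HCD 4, against 239.5, 190.3, 246.9 and 246.6 CPM in ND 1 to ND 4. ND 1, ND 3 and ND 4 formed a tight group above all HCD libraries, and ND 2 lay well below them, inside the HCD range. The means were 190.3 ± 15.7 CPM in HCD and 230.8 ± 27.2 CPM in ND, a log2 fold change of -0.28 (SE 0.0963), which was -0.36 without ND 2.

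Pck2 (ENSMUSG00000040618, chromosome 14, 55540266 to 55551242, plus strand) encodes mitochondrial phosphoenolpyruvate carboxykinase, which can feed the serine chain from the tricarboxylic acid cycle when glucose is short. It was at 74.4, 60.8, 72.5 and 75.6 CPM in HCD 1 to HCD 4, against 91.1, 86.3, 92.7 and 87.7 CPM in ND 1 to ND 4. As for Phgdh, the groups did not overlap. The ND libraries lay within a narrow band (coefficient of variation 3.32% in ND and 9.60% in HCD), and the log2 fold change was -0.34 (SE 0.0807).

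Asns and Pck2 are also the genes whose promoter window holds the core letters of the C/EBP-ATF response element, the DNA element through which ATF4 acts on amino acid genes. Windows of 300 bases, from 250 before to 50 after the annotated start, were taken from RefSeq (GRCm38.p6) for 9 of the 10 genes, while Aldh1l2 had no entry. They were searched on both strands for TGATGNAA. The 2 windows with a match, shown because they are the ones in which these letters stand, are given 5′ to 3′ along each gene, chr6:7693160-7693459 (minus strand) for Asns and chr14:55540016-55540315 (plus strand) for Pck2, with the match in capitals.
Asns: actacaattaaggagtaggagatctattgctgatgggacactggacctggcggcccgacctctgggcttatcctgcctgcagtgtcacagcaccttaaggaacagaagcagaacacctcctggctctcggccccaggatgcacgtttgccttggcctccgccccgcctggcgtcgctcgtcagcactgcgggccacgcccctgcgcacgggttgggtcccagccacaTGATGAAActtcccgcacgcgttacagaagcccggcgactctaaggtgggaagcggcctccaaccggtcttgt
Pck2: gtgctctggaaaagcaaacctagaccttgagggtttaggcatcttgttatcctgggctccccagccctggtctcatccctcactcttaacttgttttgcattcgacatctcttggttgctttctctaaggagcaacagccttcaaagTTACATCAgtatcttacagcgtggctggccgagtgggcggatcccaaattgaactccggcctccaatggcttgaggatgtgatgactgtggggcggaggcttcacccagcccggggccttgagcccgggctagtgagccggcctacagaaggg
In Asns the letters TGATGAAA lie on the gene's own strand, at positions -23 to -16 from the start. In Pck2 the match is TGATGTAA on the opposite strand, printed above as TTACATCA, at positions -103 to -96. Of all 32851 windows in the same table, 3.97% held a match. The windows of Phgdh, Psat1, Psph, Shmt1, Shmt2, Mthfd2 and Mthfd1l held none, which says only that these letters are not in those windows.

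Ordered by length-scaled level, the deposited FPKM averaged over the 8 libraries was highest for Shmt2 (153), followed by Phgdh (63.6), Mthfd1l (60.4), Asns (56.0), Mthfd2 (32.7), Psat1 (25.6), Pck2 (23.5), Aldh1l2 (8.78), Shmt1 (5.76) and Psph (4.83). Neighbours in this order had overlapping ranges over the 8 libraries except at 3 steps: Shmt2 above Phgdh, Asns above Mthfd2, and Pck2 above Aldh1l2. The last enzyme of the serine chain, Psph, thus stood far below the earlier enzymes Phgdh and Psat1 in transcript level in both diets. Phgdh was at 58.6 ± 3.90 FPKM in HCD and 68.5 ± 2.86 FPKM in ND, and Psph at 4.56 ± 0.793 FPKM in HCD and 5.11 ± 0.392 FPKM in ND. The gene lengths behind these FPKM values differed from merged exons of GENCODE M21 by factors from 0.436 (Pck2) to 1.64 (Psat1). With M21 lengths 5 of the 10 genes kept their place, Phgdh moved behind Mthfd1l and Asns, and Pck2 moved behind Aldh1l2.

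**Figure D2:**
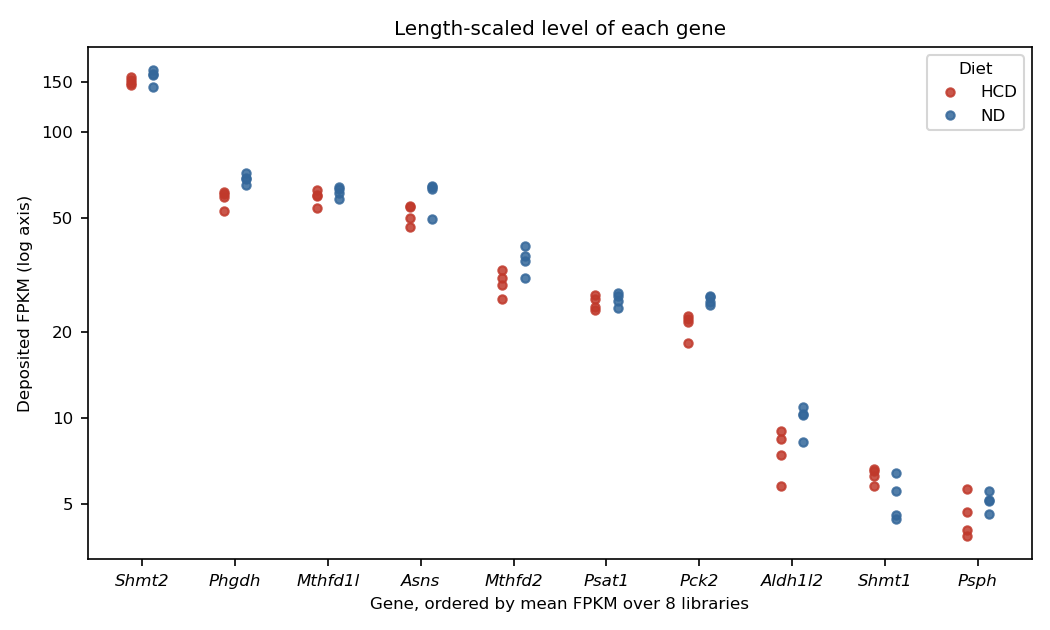
Deposited FPKM of each gene in every library (log axis), HCD in red at the left of each pair and ND in blue at the right, with genes in order of their mean over the 8 libraries. Shmt2 stands above all others at 153 FPKM on average, and Aldh1l2, Shmt1 and Psph lie below 11 FPKM in every library.

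The mitochondrial enzymes were set beside the paralogues that carry out related steps elsewhere. Mthfd1, the cytosolic enzyme with the formate-activating step that Mthfd1l runs in mitochondria, was at 28.4 ± 0.997 FPKM in HCD and 24.1 ± 3.47 FPKM in ND. Mthfd1l was therefore 2.09 ± 0.134 times Mthfd1 in HCD and 2.60 ± 0.335 times in ND, with overlapping ranges (up to 2.26 in HCD and from 2.15 in ND). By M21 exon lengths this ratio was 3.55 ± 0.228 in HCD and 4.41 ± 0.569 in ND. Mthfd2l, the mitochondrial relative of Mthfd2, was low, at 1.01 ± 0.171 FPKM in HCD and 0.965 ± 0.181 FPKM in ND. Aldh1l1, the cytosolic relative of Aldh1l2, was at 2.63 ± 0.390 FPKM in HCD and 2.73 ± 0.762 FPKM in ND. Pck1, the cytosolic relative of Pck2, had 34, 7, 13 and 2 counts in HCD 1 to HCD 4, against 5, 0, 0 and 0 counts in ND 1 to ND 4. It did not reach the filter on low counts, and none of the other 3 paralogues passed edgeR's test (adjusted p from 0.423 to 0.978, with 0 at an unadjusted p under 0.05), DESeq2 or limma-voom.

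The genes did not all vary together across the libraries. Taken as the mean over the 10 genes of log2 CPM minus each gene's average, the level was -0.03, -0.18, -0.17 and 0.0025 in HCD 1 to HCD 4, against 0.07, 0.06, 0.13 and 0.12 in ND 1 to ND 4. HCD 2 and HCD 3 were the low libraries, and each held the lowest value of 4 genes. ND 3 held the highest value of 5 genes. Within the ND group, ND 2 held the lowest value of 6 genes (Phgdh, Psat1, Shmt2, Mthfd2, Asns and Pck2), and it was also the library with the most skeletal muscle transcripts, whose part in these values was not tested. The largest single deviation was that of Aldh1l2 in HCD 3, at -0.59.

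**Figure D3:**
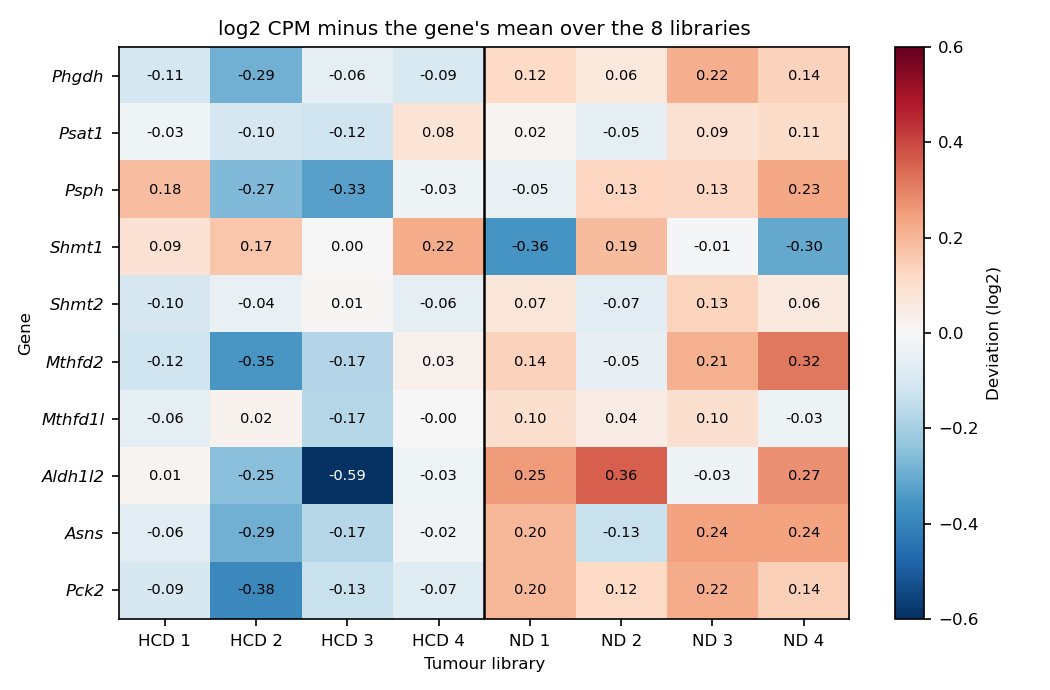
Deviation of log2 CPM from each gene's mean over the 8 libraries, with genes in rows and libraries in columns, HCD left of the black line and ND right of it. Phgdh and Pck2 are below 0 in all HCD libraries and above 0 in all ND libraries, whereas Shmt1 is lowest in ND 1 (-0.36) and ND 4 (-0.30).

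Likeness between genes was measured as the root mean square difference between standardised log2 CPM profiles over the 8 libraries, which is 0 for identical profiles, 1.41 for uncorrelated ones and 2 for opposite ones. Phgdh and Pck2 were the closest pair (0.218), followed by Asns and Mthfd2 (0.279). All 8 libraries share the diet contrast, so each diet's mean was also subtracted first. Asns and Mthfd2 then had 0.404, Psat1 and Mthfd2 0.452, and Phgdh and Pck2 0.455, while the median over all 45 pairs was 1.24. Shmt1 was the farthest member from each of the other 9 before the subtraction, from 1.51 (Mthfd1l) to 1.86 (Asns).

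Among the 12434 other tested genes with a mean of at least 1 CPM, the 5 whose profile was most like the mean profile of the 10 genes were Xpot (0.213), Pag1 (0.233), Aldh18a1 (0.250), Nab1 (0.266) and Irak2 (0.290), against a median of 1.42 over all genes compared. Xpot encodes the exportin that carries tRNA out of the nucleus, and Aldh18a1 the enzyme that starts proline synthesis from glutamate. Xpot was at 106.7 ± 6.79 CPM in HCD and 121.0 ± 6.94 CPM in ND. After subtraction of the diet means, only Nab1 and Xpot remained among the nearest 5. Atf4 had a difference of 0.385 and Chac1 of 0.364, which became 0.649 and 0.620 after the subtraction. Trib3 had 0.495 and Ddit3 0.595, which became 1.01 and 1.25.

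Companion genes of the same metabolism were taken from lists that left out the 10 genes. These lists, too, were chosen with earlier results of these data known. In the folate cycle and its carbon-unit users, 19 of 20 listed genes were tested, 15 with a higher and 4 with a lower fitted level in HCD, and the median log2 fold change was 0.07. None passed edgeR's test, DESeq2 or limma-voom, with 1 at an unadjusted p under 0.05 by edgeR, against 14.7% of all genes. That gene was Slc25a32, the mitochondrial folate carrier, at 14.5 ± 0.679 CPM in HCD and 12.1 ± 1.06 CPM in ND (log2 fold change 0.27, adjusted p = 0.285). Mtr, methionine synthase, was at 41.8 ± 2.33 CPM in HCD and 37.5 ± 2.06 CPM in ND. Mthfd1, the cytosolic trifunctional folate enzyme, was at 92.9 ± 4.44 CPM in HCD and 81.3 ± 12.1 CPM in ND. Atic, which closes the purine ring with formyl-folate, was at 221.3 ± 12.8 CPM in HCD and 206.4 ± 10.3 CPM in ND. With ND 2 to ND 4 given their own term, 8 of the 19 genes had a lower fitted level in place of 4.

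Among companion genes of serine, glycine and methionine use, including neutral amino acid carriers, 12 of 15 were tested, 5 higher and 7 lower in HCD, with a median log2 fold change of -0.03. None passed edgeR's test or limma-voom, and 3 had an unadjusted p under 0.05 by edgeR, against 14.7% of all genes. DESeq2 called 1, Slc1a4, against 3.39% of the genes it tested. Slc1a4, a carrier of serine and other small neutral amino acids, was at 33.3 ± 5.66 CPM in HCD and 49.1 ± 8.06 CPM in ND (log2 fold change -0.56, edgeR adjusted p = 0.128). The glutamine carriers Slc1a5 and Slc38a2 had log2 fold changes of -0.21 and -0.22. Sfxn1, the mitochondrial serine carrier, was at 112.8 ± 7.60 CPM in HCD and 100.5 ± 10.3 CPM in ND.

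For aspartate, glutamine and proline metabolism, all 16 listed genes were tested, 5 higher and 11 lower in HCD, with a median log2 fold change of -0.06. None passed edgeR's test, DESeq2 or limma-voom, and 3 had an unadjusted p under 0.05 by edgeR, against 14.7% of all genes. Gpt2, a mitochondrial alanine aminotransferase, was at 21.3 ± 2.80 CPM in HCD and 27.6 ± 2.03 CPM in ND (log2 fold change -0.37, adjusted p = 0.169). Ass1, argininosuccinate synthetase, had a log2 fold change of -0.23, Aldh18a1 of -0.20 and Pycr1, a proline-forming reductase, of -0.38 (adjusted p = 0.273, 0.239 and 0.367).

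The regulators come next. Of 16 tested genes that act upstream or are other outputs of ATF4, 12 were lower and 4 higher in HCD, with a median log2 fold change of -0.32. Trib3, a pseudokinase that feeds back on ATF4, and Ddit3, the stress factor CHOP, fell in HCD by edgeR's test. That test called 0.182% of all genes. At an unadjusted p under 0.05 it gave 10 of the 16, against 14.7% of all genes. DESeq2 called 6, against 3.39% of the genes it tested, and limma-voom 1, against 0.144%. The list was chosen with earlier results of these data known, so nothing is read from these counts. Trib3 fell to 79.0 ± 2.76 CPM in HCD, against 154.0 ± 24.0 CPM in ND (log2 fold change -0.96, adjusted p = 0.0225), and Ddit3 to 52.4 ± 1.52 CPM in HCD, against 84.4 ± 12.5 CPM in ND (log2 fold change -0.69, adjusted p = 0.0459). The Ddit3 call was lost without any 1 library other than ND 2, and the Trib3 call without ND 3, ND 4 or any HCD library (adjusted p up to 0.138 and 0.0891). Both calls also ended with the separate term for ND 2 to ND 4 (adjusted p = 0.245 for Trib3 and 0.339 for Ddit3), and limma-voom did not call Ddit3 (adjusted p = 0.0521).

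Atf4 itself was at 352.6, 274.7, 313.1 and 366.0 CPM in HCD 1 to HCD 4, against 442.9, 394.1, 418.4 and 486.8 CPM in ND 1 to ND 4. The groups did not overlap, and the log2 fold change was -0.42 (SE 0.0996, edgeR adjusted p = 0.115). HCD 2, the lowest library for Atf4, was also the lowest for Phgdh, Mthfd2, Asns and Pck2, and ND 2 was the lowest ND library for all of these. The remaining genes differed from Atf4 in this. Psat1, Psph, Mthfd1l and Aldh1l2 were lowest in HCD 3, Shmt2 in HCD 1 and Shmt1 in ND 1, and Aldh1l2 was highest in ND 2. Chac1, which degrades glutathione, was at 18.8 ± 2.09 CPM in HCD and 28.5 ± 5.04 CPM in ND, and Eif4ebp1, a repressor of translation, at 134.3 ± 6.91 CPM in HCD and 167.8 ± 10.2 CPM in ND (adjusted p = 0.110 and 0.0857).

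**Figure D4:**
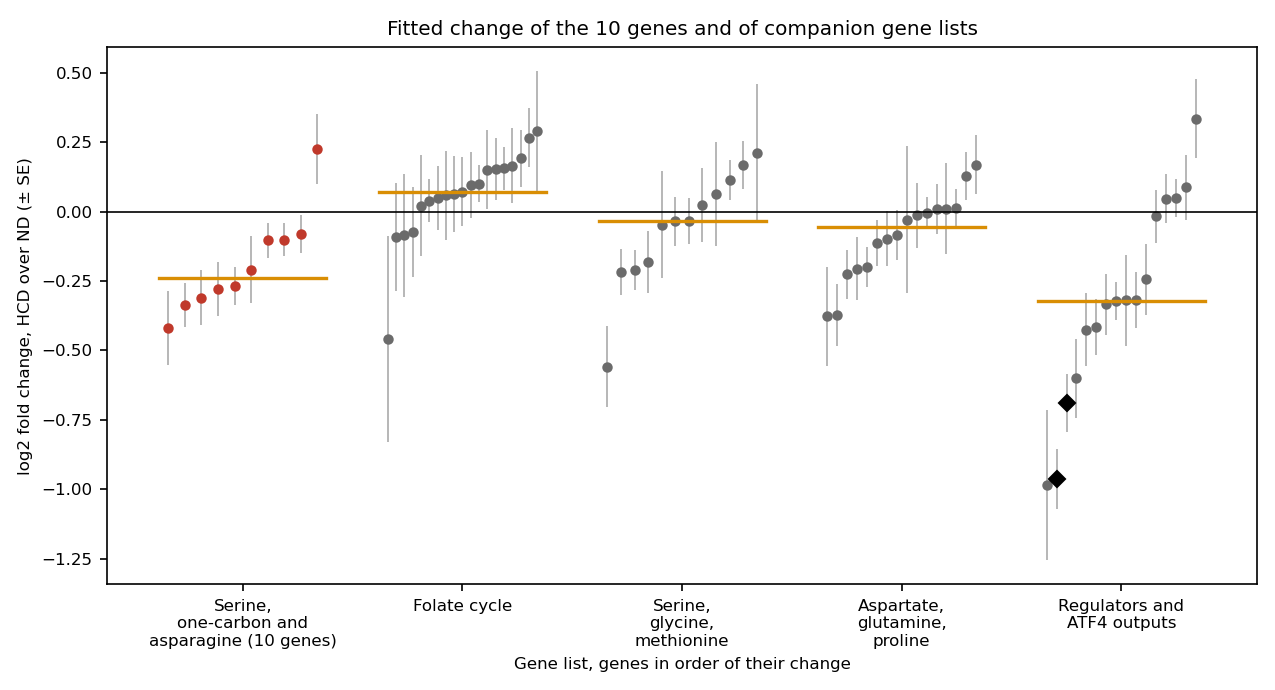
Fitted log2 fold change (HCD over ND) with its SE for each tested gene of 5 lists, the 10 genes in red and companion genes in grey, in order of size within each list, with the list's median as an orange line. Black diamonds are the 2 genes that passed edgeR's test, Trib3 and Ddit3, and the medians run from -0.32 for the regulators to 0.07 for the folate cycle.

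Markers of host cells were measured beside these values. Summed over the markers of each list, macrophage genes were at 387 to 506 CPM in HCD and 273 to 439 CPM in ND, with 7 of 8 tested markers higher in HCD. Fibroblast genes were at 74.5 to 287 CPM in HCD and 56.6 to 271 CPM in ND, with 6 of 6 higher. Endothelial genes were at 572 to 668 CPM in HCD and 530 to 667 CPM in ND, with 6 of 8 higher, and T cell genes at 12.1 to 18.8 CPM in HCD and 7.90 to 21.9 CPM in ND, with 4 of 5 higher. All 5 tested muscle markers were lower in HCD. Erythroid genes (7 of 8 markers matched) were at 109.8 to 1348 CPM in HCD and 110.0 to 1150 CPM in ND, with 7 of 7 higher. Adipocyte genes were at 9.19 to 43.8 CPM in HCD and 7.84 to 11.5 CPM in ND, and keratinocyte genes at 0.360 to 1.58 CPM in HCD and 0.926 to 2.59 CPM in ND, where Krt5, Krtdap, Dsg3 and Lor were at 0 in every library. Of the 41 host markers tested, edgeR and limma-voom called 0. At an unadjusted p under 0.05 edgeR gave 11, against 14.7% of all genes. DESeq2, run without edgeR's filter on low counts, called 3 of the 63 host markers matched, against 3.39% of the genes it tested. Some of the 63 had no DESeq2 adjusted p, so the shares are not alike. The calls were 2 muscle markers and the macrophage marker Mrc1, higher in HCD (log2 fold change 1.17, adjusted p = 9.6e-06 by DESeq2 and 0.0506 by edgeR). The part of host cells in the levels of the 10 genes was not tested.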

How the data were processed

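RNA from 8 subcutaneous tumours had been extracted with Qiagen RNeasy and made into Illumina TruSeq paired-end libraries, per the labels' protocols. The authors deposited 1 table per sample, and CASAVA 1.8, TopHat2 2.0.9, HTSeq, edgeR and mm10 appear in the submitters' processing notes. Each table holds whole-number read counts per Ensembl gene, not normalized, as deposited, and FPKM as deposited (fragments scaled by library size and gene length), whose gene annotation the sources used here do not state. FPKM served to order genes by level and to compare levels between genes, ratios among them, and no test used it.

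Counts of the 34745 genes were fitted with edgeR 4.0.16 (R 4.3.3): TMM factors, a minimum count of 10 and a minimum total of 15, the quasi-likelihood test and Benjamini-Hochberg adjustment over all 13186 genes that passed, with a threshold of 0.05. CPM use TMM-scaled library sizes. Log2 CPM for likeness used a prior count of 2. Each p-value sets a diet difference only against the spread between these samples, estimated with information shared across genes. Symbols came from GENCODE M21 (34344 identifiers matched) and promoters from RefSeq.

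The 10 genes and all lists were chosen with earlier results of these data known. Named were the 10 genes, up to 4 genes with the smallest p and any called gene per companion list, Atf4, Ddit3, Trib3, Chac1, the paralogues and the 5 most alike genes. No libraries were duplicates (chi-square per degree of freedom from 14.5 to 37.6). The scripts were tested on simulated data with changes planted in genes of all levels. There edgeR recovered 40.3% of 1.5-fold, 74.6% of 2-fold and 93.9% of 4-fold changes, with 8 false calls. The fitted changes of the 10 genes were all smaller than 1.5-fold. The shares recovered hold for genes of all levels and were not worked out at the levels of these 10. Alternatives were DESeq2 1.42.0, limma-voom (limma 3.58.1), upper-quartile factors, no filter, a replicate block, a term for ND 2 to ND 4, omission of mitochondrially encoded genes, and each library left out. An order and ratios by GENCODE exon lengths were added after seeing the data.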

Additional observations from a re-analysis of the deposited data

Results flagged for a closer look

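Single libraries far from the rest of their group were looked for with Dixon's ratio of gap to range at its 95% critical value. The search covered 77 tested genes (the 10 genes, the companion and paralogue genes and the 5 most alike genes) in each diet, and the mean deviation of the 10 genes in each diet, 156 groups of 4 libraries in all. The ratio was above the critical value in 10 groups (6.41%), and chance flags about 1 group in 20.

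Asns was at 190.3 CPM in ND 2, against 239.5 to 246.9 CPM in the other ND libraries (ratio 0.869). ND 2 was also the library with the highest sum of skeletal muscle markers, 82.3 CPM against 3.68 to 49.0 CPM in the other ND libraries. Sptlc2, a subunit of the enzyme that joins serine to palmitoyl-CoA, was at 176.0 CPM in ND 2, against 197.3 to 199.4 CPM in the other ND libraries (ratio 0.912). In HCD 4, Sptlc2 was at 230.3 CPM, against 199.3 to 204.0 CPM in the other HCD libraries (ratio 0.849). Mthfd1 was at 99.6 CPM in HCD 4, against 90.1 to 91.1 CPM in the other HCD libraries (ratio 0.894). Eif2ak4, a sensor kinase of amino acid shortage, was at 33.6 CPM in HCD 4, against 39.3 to 40.4 CPM in the other HCD libraries (ratio 0.847).

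Mthfd2l was at 5.42 CPM in HCD 3, against 7.60 to 7.88 CPM in the other HCD libraries (ratio 0.888). Mtr was at 38.3 CPM in HCD 3, against 42.6 to 43.2 CPM in the other HCD libraries (ratio 0.879). Sesn2, a stress-induced sestrin, was at 47.8 CPM in HCD 2, against 56.5 to 58.0 CPM in the other HCD libraries (ratio 0.848). Eif2ak1, the haem-regulated eIF2 kinase, was at 62.7 CPM in ND 4, against 69.5 to 70.4 CPM in the other ND libraries (ratio 0.875). Amt, a subunit of the glycine cleavage system, was at 0.432 CPM in ND 3, against 1.04 to 1.09 CPM in the other ND libraries (ratio 0.930).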

How the results depend on the processing

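Of the 10 genes, 9 had a lower fitted level in HCD under all 15 alternatives, and the median log2 fold change ranged from -0.29 to -0.19. The number of the 10 at an unadjusted p under 0.05 ranged from 3 (term for ND 2 to ND 4) to 7 (without ND 2). DESeq2 called 2 of the 10 and 1 of the serine, glycine and methionine companions.

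Over all genes, edgeR called 24, DESeq2 429, edgeR without the filter 93, and the fit with the term for ND 2 to ND 4 called 5 (1484 at an unadjusted p under 0.05). Leaving out 1 library gave 0 to 12 calls, with 0 without HCD 4 (1516 at an unadjusted p under 0.05) and without ND 4 (1603). Of the regulators, 2 were called by edgeR, 6 by DESeq2, 1 by limma-voom, 0 to 3 with 1 library left out, and 0 under the ND 2 to ND 4 term (7 at an unadjusted p under 0.05). The replicate block called 0 genes (1634 at an unadjusted p under 0.05) and 0 regulators (11), and limma-voom called 19 genes. The sample titles name no pairing by replicate number. Correlations of same-numbered deviations were 0.025, -0.011, -0.068 and 0.11, and 0 of the 4 HCD samples correlated best with its own number. Such correlations cannot show whether same-numbered samples were paired.

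By GENCODE exon lengths 5 of the 10 genes kept their place in the order. All 10 kept it by TPM, which cannot test the order within a library, since it scales all its genes alike. After subtraction of each diet mean, 2 of the 5 most alike genes were shared, and with a prior count of 0.5, 4. With 1 library left out, the log2 fold change of Mthfd2l ranged from -0.059 to 0.16 and that of Aldh1l1 from -0.22 to 0.053. The cause of these changes was not tested. Counting error (a coefficient of variation of 1.37% for Shmt2 to 5.13% for Shmt1 at the lowest count) limits the precision of a single library.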

Other observations

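A few genes outside the named rule were looked up after their values were seen. Cebpg, a partner of ATF4, was at 55.9 ± 11.1 CPM in HCD and 44.4 ± 5.33 CPM in ND (log2 fold change 0.33, SE 0.143, edgeR adjusted p = 0.315), and was thus the one ATF4-associated regulator with a higher fitted level in HCD at an unadjusted p under 0.05. Myc, a transcription factor also known to act on serine and one-carbon genes, had a log2 fold change of 0.09.

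Pck1 counts lay beside the sums of adipocyte markers: 34, 7, 13 and 2 counts in HCD 1 to HCD 4 with marker sums of 43.8, 12.4, 24.3 and 9.19 CPM, and 5, 0, 0 and 0 counts in ND 1 to ND 4, with marker sums of 7.84, 11.5, 7.84 and 8.61 CPM. HCD 1 and HCD 3 were highest in both, whereas ND 1, with 5 Pck1 counts, had the lowest marker sum, and ND 2, with 0, a sum above that of HCD 4. The part of adipocyte RNA in the Pck1 counts was not tested.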
